A study of Mus musculus with 6 samples.

Results

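F-box proteins are the interchangeable parts of SCF ubiquitin ligases, named after their subunits Skp1, cullin 1 and F-box protein. The genes described here are those whose symbol starts with Fbxl, Fbxo or Fbxw and a number, as the array's annotation assigns them, without Fbxo5 and Fbxo43. The annotation gave 65 such genes through 113 of the 45037 probe sets that are not controls. The genes were taken by their symbols, but this choice was made with earlier results of these data known. Of the genes left out, Fbxo5 was lower in XY, as given at the end of the results. One of the 65, Fbxl12os, is annotated by its name as a transcript from the opposite strand of Fbxl12 and not as an F-box protein gene. A further 2 probe sets carry the symbols of several F-box genes and were not assigned to any. None of the 65 genes is on the X or Y chromosome.

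Expression was measured in fully grown germinal vesicle (GV) oocytes, which are held in meiotic prophase with an intact nucleus. The oocytes came from XY females of B6.Y(TIR) mice, which carry a Y chromosome on a C57BL/6 background yet form ovaries, and from their XX littermates. All females were 25 to 29 days old and had received 5 IU of equine chorionic gonadotropin 45 to 47 hours earlier. Each of the 6 arrays, 3 XX and 3 XY, was made from the RNA of 10 oocytes, taken from 3 XX and 3 XY females and labelled as biological replicates. A lower signal from fewer transcripts in each oocyte and from fewer oocytes holding them cannot be told apart in such a pool. The comparison addressed which stored transcripts differ between XY oocytes and XX oocytes.

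The F-box is a short protein motif that binds Skp1, which bridges to cullin 1 and, through the RING protein Rbx1, to the enzyme that carries ubiquitin. The rest of each F-box protein picks the substrate: leucine-rich repeats in Fbxl proteins, WD40 repeats in Fbxw proteins and other domains in Fbxo proteins. In the oocyte, SCF ligases act on regulators of meiotic arrest and on maternal proteins, and rodents carry a cluster of Fbxw genes whose transcripts were found in oocytes.

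All 14 oocyte markers on the list, among them Gdf9, Zp3 and Nlrp5, were at or above the array median on each of the 6 arrays. Their summed normalised intensity ran from 106960 to 114086 in XX and from 96839 to 103257 in XY. In limma's test 1 of them was higher in XY, Ddx4 (log2 change 1.01, adjusted p = 0.0321). The 2 that were lower were Bmp15 (-1.34, 0.0101) and Mos (-0.85, 0.0272). Of 15 granulosa and cumulus markers on the array, 10 were tested and Inha was higher in XY (log2 change 1.58, limma's adjusted p = 0.0475). Their sum was 1467 to 1752 in XX and 1641 to 1862 in XY, and Amh, Inhba and Tnfaip6 never reached an array's median. For 6 theca and stroma markers the sum was 103 to 141 in XX and 225 to 375 in XY, with 4 never at the median, and neither of the 2 tested passed (Dcn, with a log2 change of 1.85, lay just above the threshold). For 5 markers of blood and endothelium it was 108 to 156 and 112 to 161, with 3 never at the median, 2 tested and Cd68 higher in XY. The 5' control of Actb, a measure of RNA integrity, read 184 and 188 in XX 2 and XX 3 but 45.9 in XX 1 and 54.7 to 62.7 in the XY arrays. XX 1 correlated with the other XX arrays at 0.967 and with the XY arrays at 0.956 to 0.962. The part of these differences in the results below was not tested, and the counts of genes are given with and without XX 1, with the genes that joined. Without XX 1, all XX arrays left had a lower Actb ratio than all XY arrays. In every result without XX 1, for the family and for the lists, genotype and this measure therefore cannot be told apart.

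Of the 65 genes, 56 had a probe set at or above the array median on at least 3 arrays and were tested, 52 of them through a probe set above it on all 6. None was kept through the arrays of a single genotype. The 9 that were not tested were Fbxl12os, Fbxl13, Fbxl15, Fbxo2, Fbxo4, Fbxo6, Fbxo24, Fbxo41 and Fbxo44, whose highest log2 level on any array ran from 3.99 to 5.73. Levels are log2(quantile-normalised intensity + 9), so the lowest possible level is 3.17, and changes of dim genes are understated on this scale.

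Few F-box genes passed the adjusted threshold between XY and XX oocytes with all arrays. By unadjusted p and by overlap, their shares were close to those of all genes. In limma's fit over all 12442 tested genes, 3 of the 56 rose in XY (adjusted p under 0.05), which is 5.36%, against 7.86% of all genes. None fell, against 5.34% of all genes, and 18 of the 56 had an unadjusted p under 0.05 in either direction, where 32.2% of all genes did. The share called in either direction was 5.36% of F-box genes and 13.2% of all genes, or 12.7% of autosomal genes. Under median scaling 2 rose and 12 fell, against 3.87% and 13.0% of all genes. The median log2 change of the 56 genes was -0.15, beside 0.07 for all genes, with 24 positive and 32 negative values from -0.79 to 1.38. XX and XY values did not overlap for 22 of the 56 (39.3%), where 38.8% of all genes did not. Of these, 10 lay higher and 12 lower in XY, against 22.6% and 16.2% of all genes. Only 2 of the 56 differed at least 2-fold (3.57%), against 8.72% of all genes.

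**Figure D1:**
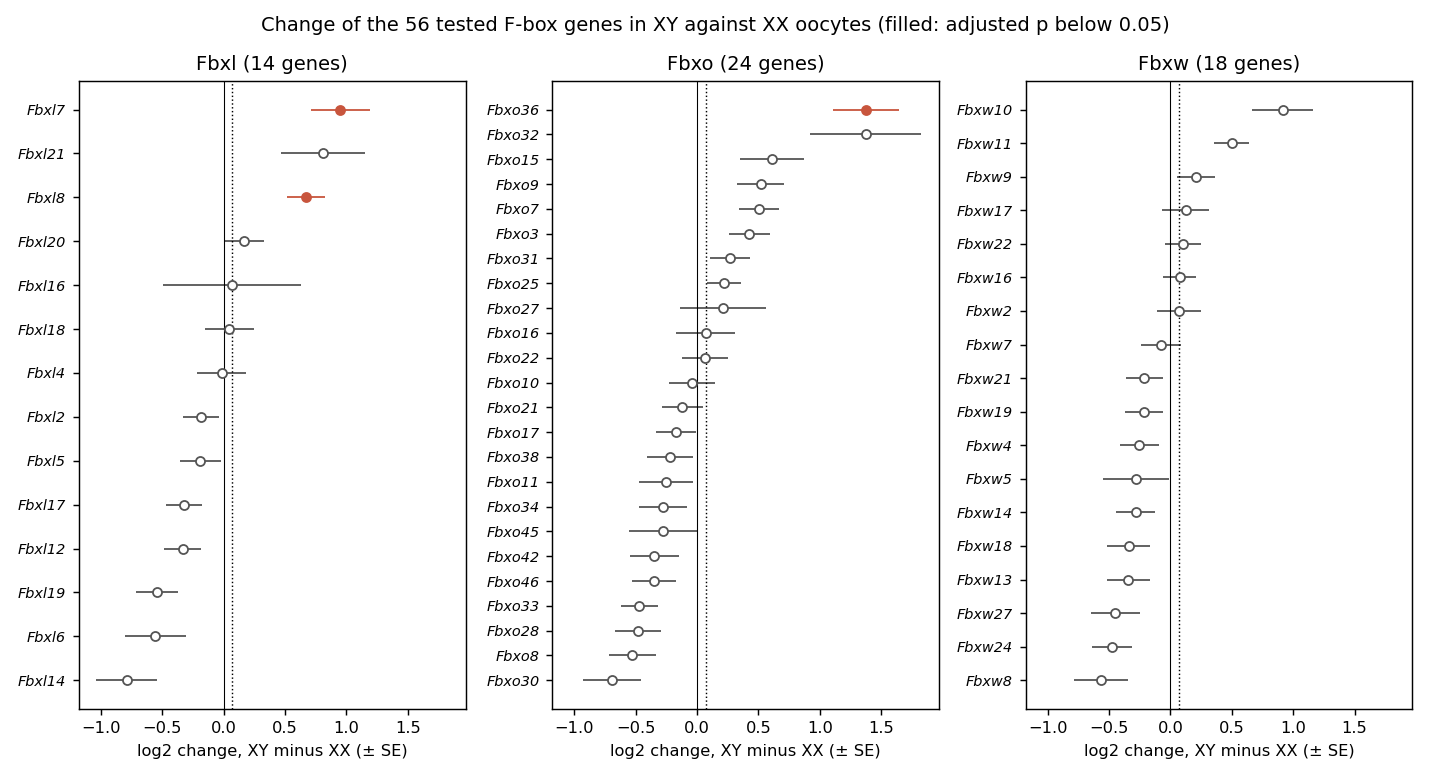
Log2 change, XY minus XX, with its standard error for the 56 tested F-box genes, split into the Fbxl, Fbxo and Fbxw groups and sorted within each. Filled points passed an adjusted p of 0.05, the solid line marks 0 and the dotted line the median of all genes, 0.07. The 3 filled points, Fbxo36, Fbxl7 and Fbxl8, lie to the right, and no filled point lies to the left.

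By subfamily, 2 of 14 tested Fbxl genes rose (14.3%) and 1 of 24 Fbxo genes (4.17%), against 7.86% of all genes. In limma's test 0 of 18 Fbxw genes passed, against 13.2% of all genes in either direction, and 4 of the 18 had an unadjusted p under 0.05, against 32.2%. Median log2 changes were -0.10 in Fbxl, -0.08 in Fbxo and -0.21 in Fbxw. Whether the subfamilies differed from each other was not tested.

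Fbxo36 (chromosome 1, positions 84839841 to 84900487 of GRCm38.p6) had the largest change of the family. Little is known of its substrates. In the order of the replicate numbers, as throughout, the level on the XX arrays was 7.35, 6.61 and 7.01, and on the XY arrays 7.90, 8.60 and 8.60. Each XY array lay above each XX array, with XX 1 the closest of the XX arrays to the XY values. The log2 change was 1.38 ± 0.27 (SE), or 2.60-fold, with limma's adjusted p = 0.0207. Leaving out XX 2 ended the call (adjusted p = 0.0649), as did leaving out XX 3 (0.0650), XY 2 (0.0705) or XY 3 (0.0664). Without XX 1 it passed (1.56, adjusted p = 0.0139). A second kept probe set of the gene had a log2 change of -0.04 ± 0.19, with 7.09, 6.64 and 6.58 in XX and 6.65, 6.71 and 6.81 in XY. With the mean of both probe sets the change was 0.67 (adjusted p = 0.0726).

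Fbxl7 (chromosome 15, positions 26540454 to 26895564) encodes a leucine-rich repeat F-box protein linked to degradation of the mitotic kinase Aurora A. Its level was 7.08, 7.22 and 7.80 in the XX arrays and 8.50, 8.47 and 7.99 in the XY arrays, so that XX 3 and XY 3 lay close together without overlap. The log2 change was 0.95 ± 0.24, or 1.93-fold (adjusted p = 0.0450). It was the weakest of the calls: the adjusted p was 0.0619 (log2 change 0.81) when XX 1 was left out, 0.125 for XX 2 and 0.118, 0.129 and 0.0591 for the XY arrays. The call also ended on the unscaled values (0.70, 0.235) and under median scaling (0.54, 0.239), a pseudocount of 1 (0.0571) or no filter (0.0831), and held with the mean of its probe sets (0.63, 0.0429). Its other kept probe set had a change of 0.30 ± 0.32.

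Fbxl8 (chromosome 8, positions 105264648 to 105269326), a further leucine-rich repeat member, had 6.86, 6.86 and 7.17 in XX and 7.68, 7.67 and 7.56 in XY. The XY values were close together and above all XX values. The change was 0.67 ± 0.15, or 1.59-fold, through the single probe set of the gene (adjusted p = 0.0334). It did not pass without XX 2 (0.0960), XY 1 (0.0991), XY 2 (0.107) or XY 3 (0.0852), nor on the unscaled values (0.51, 0.315) or under median scaling (0.35, 0.351) or no filter (0.0705). All 3 calls were also lost with the Actb ratio as a covariate (adjusted p of 0.156 for Fbxo36, 0.114 for Fbxl7 and 0.109 for Fbxl8).

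The promoters of 2 of these 3 genes were in the RefSeq table of GRCm38.p6, which held 48 of the 65 genes. They are shown, from 250 bases before to 50 after the transcript start, because they hold more CG dinucleotides than those of the Fbxw cluster below. Capitals mark the letters CAGCTG, a form of the E-box that basic helix-loop-helix factors bind, and TTTAAA, an AT-rich hexamer. Fbxo36 lies at chr1:84839591-84839890 on the plus strand and Fbxl7 at chr15:26895515-26895814 on the minus strand.
Fbxo36: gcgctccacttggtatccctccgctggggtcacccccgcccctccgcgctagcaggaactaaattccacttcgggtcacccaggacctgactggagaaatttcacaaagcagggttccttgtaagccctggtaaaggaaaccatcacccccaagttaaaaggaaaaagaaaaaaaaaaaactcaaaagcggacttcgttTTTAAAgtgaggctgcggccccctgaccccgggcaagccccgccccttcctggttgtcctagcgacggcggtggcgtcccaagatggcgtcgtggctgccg
Fbxl7: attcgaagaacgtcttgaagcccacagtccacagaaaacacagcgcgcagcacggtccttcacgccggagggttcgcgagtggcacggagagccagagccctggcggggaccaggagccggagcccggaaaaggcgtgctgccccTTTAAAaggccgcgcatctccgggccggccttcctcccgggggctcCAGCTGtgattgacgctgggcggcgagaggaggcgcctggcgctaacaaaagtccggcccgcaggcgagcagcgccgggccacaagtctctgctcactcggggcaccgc
They hold 18 and 31 CG dinucleotides, against a median of 21 over the 42 promoters of F-box genes outside the cluster and 7 over all 32851 promoters listed.

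Several members missed the threshold by little. Fbxw11, also known as beta-TrCP2, recognises phosphorylated beta-catenin, I-kappa-B and, with its relative Btrc, regulators of the cell cycle. Its level was 12.64, 12.69 and 12.47 in XX and 13.08, 13.15 and 13.06 in XY, without overlap. The change of 0.50 ± 0.14 did not pass (adjusted p = 0.0586), but it did without XX 1 (0.51, adjusted p = 0.0395). On the unscaled values it was 0.22 (0.655) and under median scaling 0.06 (0.884). Its second kept probe set had 0.36 ± 0.21.

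Fbxw10, a WD40 member, had 6.55, 6.20 and 6.66 in XX and 7.08, 7.88 and 7.20 in XY. Its change of 0.91 ± 0.25 did not pass (adjusted p = 0.0535), although the groups did not overlap. Fbxo7, a gene mutated in inherited parkinsonism, had 9.19, 8.76 and 8.91 against 9.40, 9.44 and 9.54, a change of 0.50 ± 0.16 (adjusted p = 0.0822). Without XX 1, the highest of the XX arrays, it was 0.62 and passed (adjusted p = 0.0214). It was 0.18 on the unscaled values (0.724) and 0.02 under median scaling (0.960).

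On the lower side, Fbxl14, which targets the transcription factor Snail, had 9.89, 8.99 and 9.59 in XX and 8.69, 8.88 and 8.53 in XY. The change was -0.79 ± 0.25 (adjusted p = 0.0759), and XX 2 lay just above the highest XY array. Without XX 2 it was -1.04 and passed (adjusted p = 0.0413), as it did on the unscaled values (-1.10, 0.0367) and under median scaling (-1.26, 0.00997). Fbxl19, whose protein binds unmethylated CG-rich DNA through a CXXC domain, had 7.21, 6.74 and 6.84 against 6.35, 6.40 and 6.42, a change of -0.54 ± 0.17 (adjusted p = 0.0737). Fbxo33 had 11.25, 11.62 and 11.42 in XX and 10.96 in each XY array, a change of -0.47 ± 0.15 (adjusted p = 0.0828). It passed without XX 1 (-0.55, adjusted p = 0.0284) and under median scaling (-1.001, 0.0247).

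**Figure D2:**
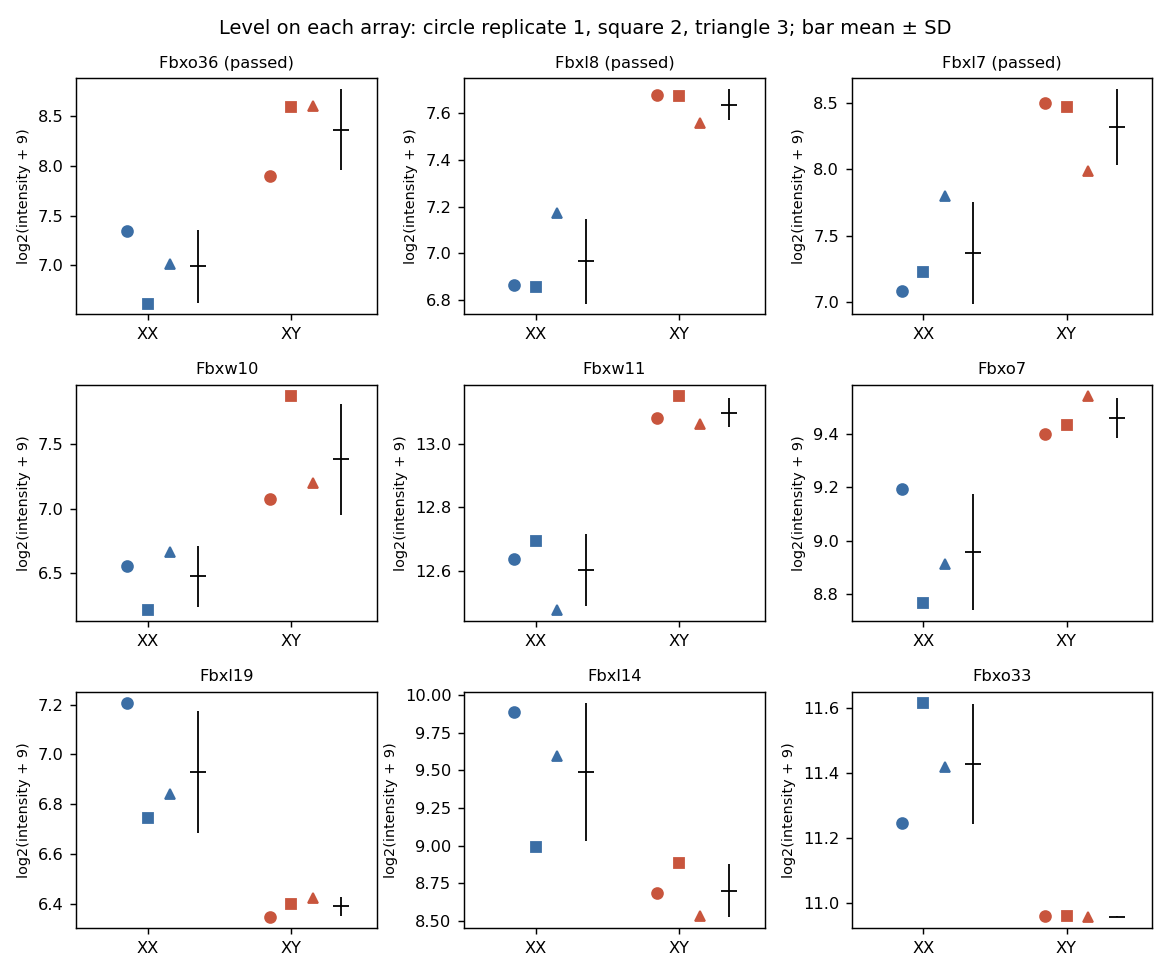
Level on each array, as log2(quantile-normalised intensity + 9), of the 3 genes that passed and the 6 with the next smallest p. Blue points are XX, red points XY, shapes mark replicates, and the black bar is the mean with its SD (n = 3). In all 9 panels the XX and XY points do not overlap, and the vertical scale differs between panels.

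The muscle atrophy gene Fbxo32, also known as atrogin-1, had a change as large as that of Fbxo36, 1.37 ± 0.45, but with wide spread (adjusted p = 0.0858). Its values were 5.65, 3.79 and 4.55 in XX and 6.09, 5.62 and 6.41 in XY, where XX 1 overlapped the XY arrays. XX 2 and XX 3 lay below the array median. The other probe sets of the gene, with changes of -0.64 and 0.85, were too dim to be kept. Fbxo32 passed without XX 1 (1.89, adjusted p = 0.0132), where it was kept through the XY arrays alone. In all, 14 F-box genes passed without XX 1, 8 higher and 6 lower, among which 2 of the 3 calls made with all arrays. The share called also moved for all genes, to 16.8% higher and 10.6% lower. Without XX 1, genotype and the Actb ratio cannot be told apart. Those that joined were the 2 genes Fbxw11 and Fbxo32, then Fbxo7, Fbxo9, Fbxo3 and Fbxo15 as higher, and Fbxl6, Fbxo8, Fbxw27, Fbxo33, Fbxo30 and Fbxo28 as lower. The changes without XX 1 were 0.70 ± 0.12 in Fbxo9 (adjusted p = 0.0130), 0.54 ± 0.13 in Fbxo3 (0.0306) and 0.83 ± 0.23 in Fbxo15 (0.0491). They were -0.67 ± 0.15 in Fbxo8 (0.0267), -0.89 ± 0.21 in Fbxo30 (0.0292) and -0.60 ± 0.16 in Fbxo28 (0.0432). Fbxl6 was the member with the smallest p there, with -0.84 ± 0.12 (adjusted p = 0.00837). With XX 1, at 9.37 among XX values of 10.20 and 10.26 and XY values of 9.39, 9.41 and 9.37, its change was -0.56 ± 0.25 (adjusted p = 0.172).

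Some of the best known members had small changes. Fbxw7, the receptor for cyclin E, Myc and Notch, had 8.75, 8.60 and 8.41 in XX and 8.44, 8.67 and 8.43 in XY, a change of -0.08 ± 0.16 (adjusted p = 0.771). Fbxl5, an iron sensor that controls iron regulatory protein 2, had -0.19 ± 0.16, and Fbxo11, which acts on Bcl6, had -0.25 ± 0.22. The smallest changes in size were those of Fbxl4 (-0.02 ± 0.20), a mitochondrial member, Fbxo10 (-0.04 ± 0.19), Fbxl18 (0.05 ± 0.20), Fbxl16 (0.06 ± 0.56), Fbxo22 (0.07 ± 0.19) and Fbxw2 (0.07 ± 0.18). The standard error of Fbxl16 was wide, with 3.85, 5.83 and 6.03 in the XY arrays. The other kept probe sets of Fbxw2 had larger changes, 0.93 ± 0.39 and 0.54 ± 0.27, which did not pass when tested singly. For none of these does a p above the threshold show equal levels.

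The Fbxw cluster covers positions 109139454 to 109790660 of chromosome 9 and holds 15 Fbxw genes in RefSeq, of which 9 had a probe set of their own. All 9 were tested. None passed limma's test (0 of 9, against 13.2% of all genes), and 1 had an unadjusted p under 0.05, against 32.2%. The change was negative in 7 and positive in 2, where it was negative in 5520 of all 12442 genes, and the median was -0.28, beside 0.07 for all genes. Outside the cluster the median of 47 F-box genes was -0.04, and the 3 genes that rose were all there.

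Promoters of the cluster are shown for 4 of its genes because of how alike they are. They stand on the minus strand at chr9:109161973-109162272 for Fbxw21, chr9:109287627-109287926 for Fbxw14, chr9:109449091-109449390 for Fbxw16 and chr9:109626010-109626309 for Fbxw24. Capitals mark CAGCTG and TTTAAA, as above.
Fbxw21: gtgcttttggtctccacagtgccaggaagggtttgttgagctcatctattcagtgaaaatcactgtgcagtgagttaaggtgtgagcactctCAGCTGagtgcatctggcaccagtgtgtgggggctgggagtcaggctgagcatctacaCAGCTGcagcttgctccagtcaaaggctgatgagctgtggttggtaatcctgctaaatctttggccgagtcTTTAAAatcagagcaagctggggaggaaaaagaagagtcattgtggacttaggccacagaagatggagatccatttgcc
Fbxw14: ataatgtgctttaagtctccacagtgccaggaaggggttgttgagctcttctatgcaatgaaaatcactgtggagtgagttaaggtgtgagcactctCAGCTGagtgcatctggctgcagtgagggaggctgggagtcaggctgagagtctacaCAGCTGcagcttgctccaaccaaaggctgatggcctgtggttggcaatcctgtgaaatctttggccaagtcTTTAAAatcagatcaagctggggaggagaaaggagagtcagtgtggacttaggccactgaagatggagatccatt
Fbxw16: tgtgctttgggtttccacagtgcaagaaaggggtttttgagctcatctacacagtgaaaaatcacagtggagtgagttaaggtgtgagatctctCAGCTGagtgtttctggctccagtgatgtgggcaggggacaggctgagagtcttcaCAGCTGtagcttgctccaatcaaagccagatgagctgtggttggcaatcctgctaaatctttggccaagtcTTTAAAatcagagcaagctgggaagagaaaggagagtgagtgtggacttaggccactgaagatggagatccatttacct
Fbxw24: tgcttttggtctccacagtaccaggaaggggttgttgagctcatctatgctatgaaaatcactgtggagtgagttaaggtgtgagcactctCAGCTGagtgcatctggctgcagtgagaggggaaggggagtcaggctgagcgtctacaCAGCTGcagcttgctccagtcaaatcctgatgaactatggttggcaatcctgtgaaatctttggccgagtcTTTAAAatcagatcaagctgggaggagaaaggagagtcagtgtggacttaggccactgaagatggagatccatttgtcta
Over the 6 tested cluster genes with a promoter in the table, the 15 pairs were 67.8% to 89.7% identical in global alignment, with a median of 82.8%. The 861 pairs of other F-box genes had a median of 49.1% and a highest value of 61.0%. All 6 cluster promoters held CAGCTG and TTTAAA, which read the same on both strands and do not overlap each other. Over all promoters the shares were 16.3% and 13.2%, and over the 42 other F-box genes 19.0% and 16.7%. TAATTG, the core bound by the oocyte factor Nobox, was searched on both strands and was in 0 of the 6 windows and in 8.0% of all. TATAAA was in 0 of the 6 and in 13.6% of all. Over the 42 other F-box genes these shares were 4.76% for TAATTG and 0% for TATAAA, so the lack of TATAAA is not particular to the cluster. Each cluster promoter held 0 to 4 CG dinucleotides, with a median of 1. A match of letters is not a site. Only promoters were compared, and whether probe sets of the cluster share signal was not tested, so single values of the cluster are uncertain.

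Among the probe sets that stood for genes, Fbxw24 had the largest change of the cluster, from 13.20, 12.79 and 13.18 in XX to 12.61, 12.61 and 12.53 in XY. The groups did not overlap, and the change was -0.48 ± 0.17 (adjusted p = 0.0964). Fbxw27 had 10.92, 11.30 and 11.61 against 10.82, 10.84 and 10.82, a change of -0.45 ± 0.20 (adjusted p = 0.167). Its XX 1 value was close to the XY arrays, and without it the change was -0.62 (adjusted p = 0.0282).

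Fbxw13 (-0.34 ± 0.17), Fbxw18 (-0.34 ± 0.17), Fbxw14 (-0.28 ± 0.16), Fbxw19 (-0.21 ± 0.15) and Fbxw21 (-0.21 ± 0.15) were lower on average without passing. Fbxw14 had 8.19, 8.14 and 8.15 in XX and 7.71, 8.11 and 7.81 in XY, with XY 2 just below the XX arrays. Fbxw22 (0.10 ± 0.15) and Fbxw16 (0.07 ± 0.14) had the 2 positive values, which turned negative on the unscaled values and under median scaling. With median scaling, where the median of all genes was -0.27, Fbxw24 (-0.92, adjusted p = 0.0276), Fbxw13 (-0.88, 0.0344) and Fbxw27 (-0.97, 0.0451) passed.

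**Figure D3:**
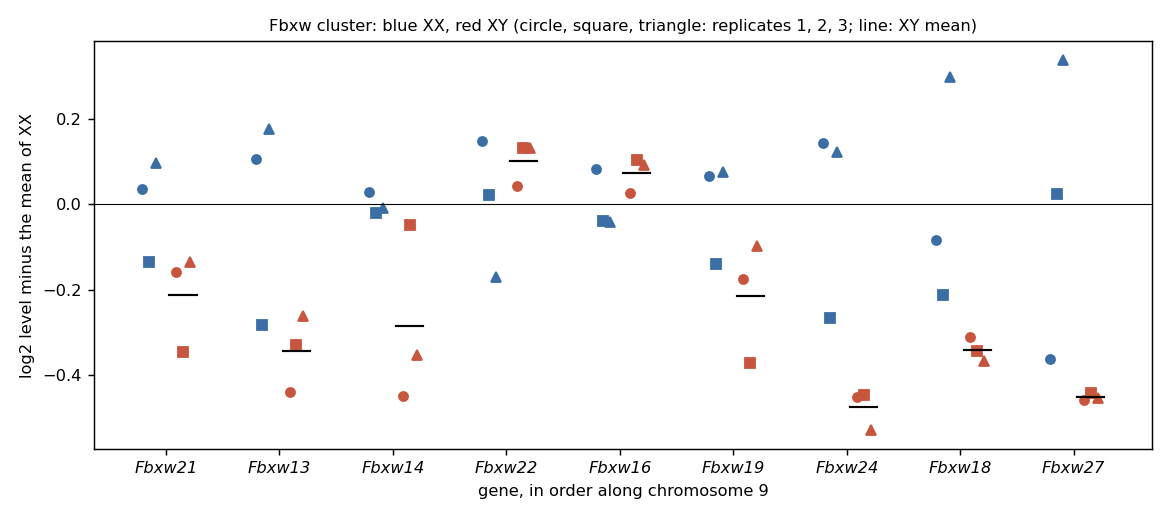
Level of each of the 9 tested genes of the Fbxw cluster on each array, as the log2 difference from the gene's XX mean, in the order of the genes along chromosome 9. Blue points are XX, red points XY, shapes mark replicates and black lines the XY mean. The XY mean lies below the XX mean for 7 genes and above it for Fbxw22 and Fbxw16.

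Probe sets of the same gene did not always move together. Of the 17 tested genes with more than 1 kept probe set, 11 had changes of the same sign in all of them and 6 did not, namely Fbxl17, Fbxo9, Fbxo21, Fbxo22, Fbxo36 and Fbxw16. When the 82 kept probe sets of the family were tested one by one over 22997 probe sets, 3 were higher in XY and 2 lower, against 5.08% and 5.41% of all probe sets. Without XX 1, 7 of 81 were higher and 12 lower, against 12.1% and 11.0%. The 3 were of Fbxo36, Fbxl8 and Fbxo31, and the 2 of Fbxw16 and Fbxw8. The probe set of Fbxl7 that passed among genes had an adjusted p of 0.0536 among probe sets.

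Fbxw8, a WD40 member that works with cullin 7 in place of cullin 1 in some complexes, had the largest lower call. This probe set read 9.82, 9.74 and 10.02 in XX and 8.53, 8.21 and 8.99 in XY, well apart, with a change of -1.29 ± 0.23 (adjusted p = 0.0196). The probe set that stood for the gene had -0.56 ± 0.22 in the gene fit (adjusted p = 0.126), with 9.52 in XX 3 and 9.62 in XY 3 overlapping. The third kept one had -0.16 ± 0.29. The call of the first had an adjusted p of 0.0558 when XX 2 was left out, 0.0672 for XX 3, 0.0559 for XY 1, 0.0601 for XY 2 and, still past the threshold, 0.0231 for XX 1.

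Fbxo31, linked to degradation of cyclin D1, had 7.20, 6.69 and 6.72 in XX and 7.77, 8.10 and 7.76 in XY in the probe set that passed, a change of 1.003 ± 0.20 (adjusted p = 0.0272). It did not pass without XX 2 (0.0876), XX 3 (0.0880), XY 1 (0.0629), XY 2 (0.0889) or XY 3 (0.0697). Its other probe set, which stood for the gene, had 0.27 ± 0.16, and the mean of both passed (0.64, adjusted p = 0.0351). In Fbxw16 the second probe set read 7.65, 7.53 and 7.90 in XX and 6.59, 6.75 and 6.74 in XY, a change of -0.9998 ± 0.17 (adjusted p = 0.0175), while the first stayed near 0 (13.78, 13.66 and 13.65 against 13.72, 13.80 and 13.79). The call of the second was lost without XX 3 (0.0579), XY 1 (0.0533), XY 2 (0.0576) or XY 3 (0.0550).

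Among the others, Fbxo9, an F-box protein of growth factor signalling, had 0.52 ± 0.19 in the gene fit and -0.80 ± 0.44 in its other probe set. Fbxl17, which clears misassembled BTB protein dimers, had -0.32 ± 0.15 and, in its other probe set, 0.89 ± 0.37. Fbxo22, a receptor for the demethylase Kdm4a, had 0.07 ± 0.19 in the gene fit and -0.71 ± 0.20 and -0.29 ± 0.38 in the others. The values of Fbxo21 were -0.12 ± 0.17 and 0.13 ± 0.16. None of these passed.

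**Figure D4:**
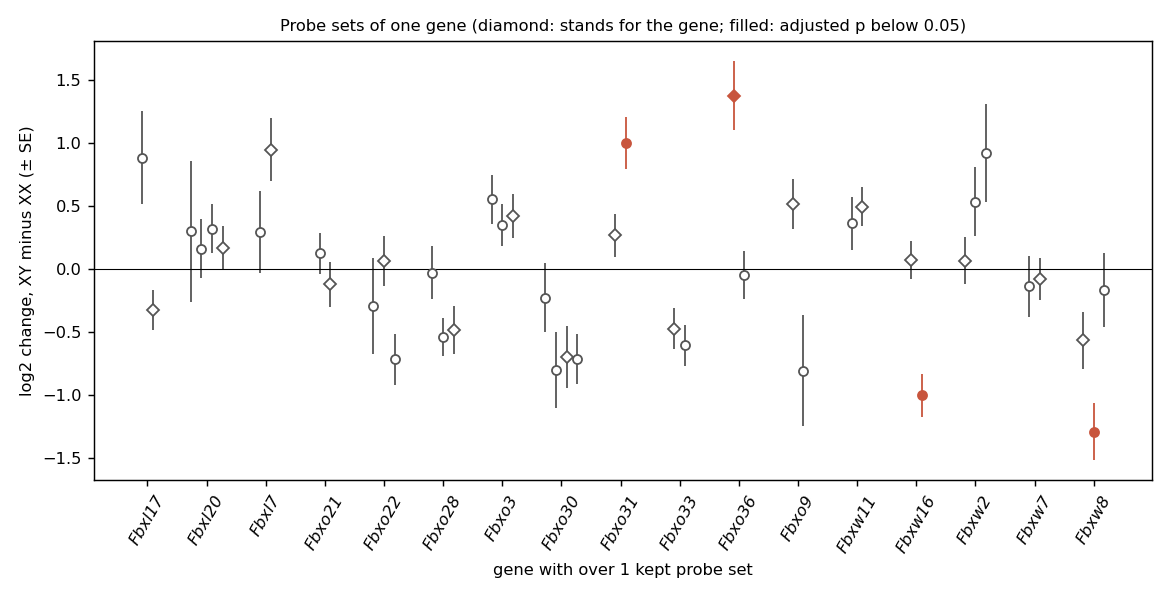
Log2 change, XY minus XX, with its standard error for each kept probe set of the 17 F-box genes with more than 1, in the fit over probe sets. Diamonds mark the probe set that stood for the gene, and filled points passed an adjusted p of 0.05. The filled points of Fbxw16, Fbxw8 and Fbxo31 are not the ones that stood for their gene.

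Most genes of the SCF core did not pass. Of 29 listed genes of the core, its neddylation and the COP9 signalosome, 27 were tested, 1 rose and 1 fell (7.41% called, against 13.2% of all genes), and the median log2 change was 0.00. Skp1, the adaptor, had 12.91, 13.03 and 12.86 in XX and 12.85, 12.85 and 12.90 in XY (-0.06 ± 0.14). Cul1, the scaffold, had 13.13, 13.46 and 13.35 against 13.25, 13.29 and 13.34 (-0.02 ± 0.15). Rbx1, the usual RING subunit, was not tested. Rnf7, its relative also known as Rbx2, rose by 1.18 ± 0.29 (adjusted p = 0.0403), from 8.08, 7.61 and 7.005 to 8.47, 8.75 and 9.00. Dcun1d5, a helper of cullin neddylation, fell by 0.62 ± 0.16 (adjusted p = 0.0481), and Cops7b (0.95, 0.0864) and Dcun1d2 (-0.44, 0.140) did not pass. Without XX 1, 6 of the 27 passed, against 27.4% of all genes. Those that joined were Cops7b (1.31, adjusted p = 0.00720), Cops2 (-0.97, 0.0151), Dcun1d1 (0.92, 0.0220) and Cand1 (-0.77, 0.0261). Leaving out XX 2, XX 3 or any XY array ended the calls of Rnf7 (adjusted p of 0.0988, 0.0835, 0.0673, 0.106 and 0.114 in that order) and Dcun1d5 (0.102, 0.122, 0.0856, 0.153 and 0.124).

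Of 8 F-box proteins named otherwise, 7 were tested, 2 rose and 0 fell (28.6% called, against 13.2% of all genes), and the median log2 change was 0.00. Nccrp1 rose by 1.58 ± 0.32 (adjusted p = 0.0229), from 4.44, 4.42 and 5.15 to 6.12, 6.85 and 5.79. All its XX values lay below the array median, so Nccrp1 was tested only through the XY arrays, where it was high. The 28.6% includes this gene and is not evidence about the list. The call was lost without XX 2 (1.44, adjusted p = 0.0767), and without any 1 of the XY arrays it missed the filter. Ccnf, or cyclin F, the founding F-box protein, rose by 0.59 ± 0.13 (adjusted p = 0.0306), from 9.69, 9.75 and 9.74 to 10.31, 10.34 and 10.30. This call ended when XX 2 (0.0765), XX 3 (0.0737), XY 1 (0.0917), XY 2 (0.106) or XY 3 (0.0971) was left out, and the change was 0.23 on the unscaled values (0.666) and 0.07 under median scaling (0.865). Skp2, the receptor for the cyclin-dependent kinase inhibitor p27, had -0.09 ± 0.19 and Btrc 0.10 ± 0.20. Lmo7 (-0.41, adjusted p = 0.109) and Kdm2a (-0.53, 0.110), a histone demethylase, did not pass, and Lmo7 did without XX 1 (-0.50, 0.0333).

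Among 21 genes of other cullin ligases, 20 were tested, 2 rose and 2 fell, which is 10.0% in each direction, against 7.86% and 5.34% of all genes. Their median log2 change was 0.26. Cul7, the scaffold that pairs with Fbxw8, rose by 2.17 ± 0.20 (adjusted p = 0.00322), from 6.36, 6.09 and 6.76 in XX to 8.48, 8.51 and 8.72 in XY. It passed in each of the 19 alternatives, with changes of 1.83 to 2.29. Rhobtb3 rose by 1.12 ± 0.25, but did not pass when XX 3 (adjusted p = 0.0925) or an XY array (0.0832, 0.0968 and 0.0800) was left out. It also did not pass on the unscaled values (0.140) or under median scaling (0.126). Cul5 fell by 1.24 ± 0.25 (adjusted p = 0.0217), and its change lay between -1.67 and -1.02 in all 19 alternatives. The threshold was missed on leaving out XX 3 (0.0699), XY 2 (0.0585) or XY 3 (0.0582). X-linked Cul4b fell by 0.94 ± 0.17 (adjusted p = 0.0161), with -1.44 to -0.74 over the alternatives, and missed the threshold on leaving out XY 1 (0.0594) or XY 3 (0.0599). Dtl (-0.84, adjusted p = 0.0664), a receptor of cullin 4 ligases, and Dcaf13 (0.41, 0.0878) did not pass, and Dcaf13 had -0.11 under median scaling. Without XX 1, 9 of the 20 passed, against 27.4% of all genes. Those that joined were Dtl (-1.11, adjusted p = 0.00684), Dcaf13 (0.46, 0.0400), Rhobtb1 (0.67, 0.0167), Elob (0.52, 0.0474) and Keap1 (0.54, 0.0493).

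Of 32 listed substrates of F-box proteins, 28 were tested, 5 rose (17.9%, against 7.86% of all genes) and 1 fell (3.57%, against 5.34%). Their median log2 change was 0.25, beside 0.07 for all genes. These are transcript levels and say nothing of protein turnover. Bcl6, a transcriptional repressor and a substrate of Fbxo11, rose by 1.24 ± 0.17 (adjusted p = 0.00870), from 7.26, 6.83 and 7.32 to 8.43, 8.37 and 8.34. The lipid regulator Srebf1, a target of Fbxw7, rose by 1.02 ± 0.13 (adjusted p = 0.00705), a call lost on the unscaled values (0.67, 0.164) and under median scaling (0.51, 0.164). Rrm2, a ribonucleotide reductase subunit degraded through cyclin F, rose by 0.98 ± 0.17 (adjusted p = 0.0157). Under these scalings the change was 0.62 (0.174) and 0.46 (0.194), and the threshold was also missed on leaving out XX 2 (0.0525), XY 1 (0.0537), XY 2 (0.0601) or XY 3 (0.0534).

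The cyclin gene Ccnd1 (0.83 ± 0.19) and the clock gene Per1 (0.58 ± 0.15) also rose. Both calls were lost without XX 2, XX 3 or any XY array (adjusted p of 0.0627 to 0.101 for Ccnd1 and 0.0847 to 0.144 for Per1) and on the unscaled values (0.81 with 0.110 and 0.31 with 0.557). Cdkn1b, which encodes p27, fell by 0.73 ± 0.16 (adjusted p = 0.0290). Its change was -1.12 to -0.53 over the alternatives, and the threshold was missed on leaving out XX 2 (0.0854), XX 3 (0.0776), XY 1 (0.0933), XY 2 (0.0868) or XY 3 (0.0696). Pdcd4 (-0.54, adjusted p = 0.0535) and Ccnd2 (1.81, 0.0564) did not pass. Without XX 1, 12 of the 28 passed, against 27.4% of all genes. Those that joined were Pdcd4 (-0.60, adjusted p = 0.0258), Ccnd2 (1.64, 0.0132), Mcl1 (1.14, 0.00837), Ireb2 (-1.29, 0.00815), Eif3f (0.55, 0.0424) and Cdt1 (0.44, 0.0436). Ccnd2 also passed without XY 1 (1.59, 0.0467).

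**Figure D5:**
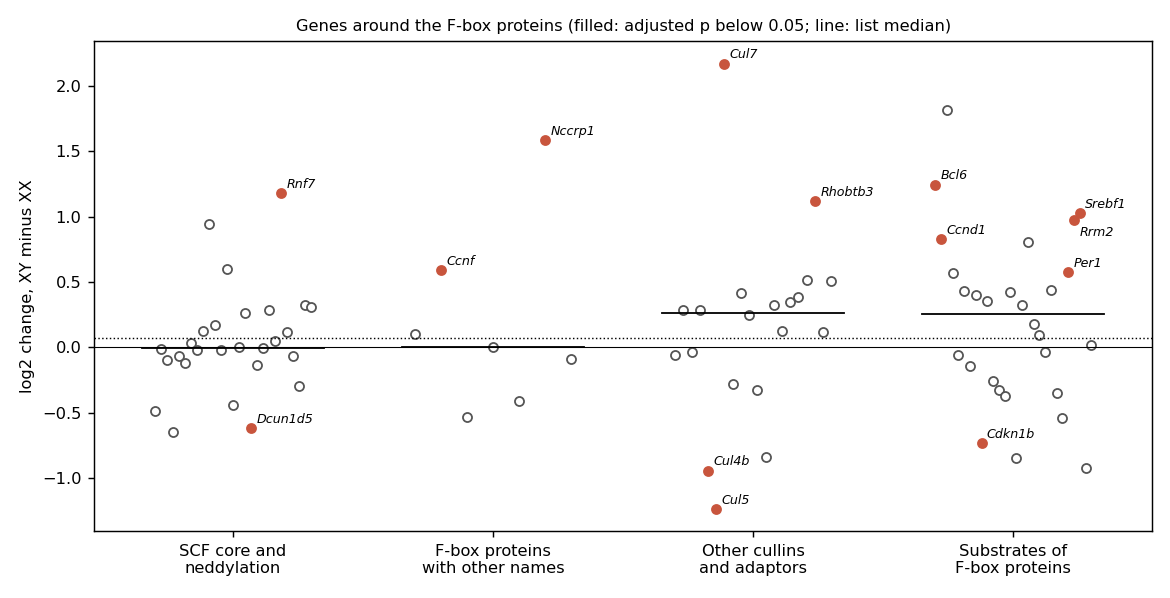
Log2 change, XY minus XX, of each tested gene of 4 lists around the F-box proteins, in alphabetical order within a list. Filled and named points passed an adjusted p of 0.05, short lines are list medians and the dotted line is the median of all genes, 0.07. Cul7, at 2.17, is the highest point, and the median of the SCF core lies at 0.00.

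Fbxo5 and Fbxo43, the inhibitors of the anaphase-promoting complex left out of the family above, had changes of -0.83 ± 0.16 (adjusted p = 0.0193) and -1.11 ± 0.54 (0.199). The call of Fbxo5 was lost on leaving out XX 2 (0.0619), XX 3 (0.0575), XY 1 (0.0673), XY 2 (0.0686) or XY 3 (0.0582).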

How the data were processed

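The authors deposited 1 linear intensity per probe set and array, and the submitters' processing notes name MAS5. Neither a version nor a target value for it is given in the sources used here. Array medians ran from 24.5 to 31.4, so the 6 arrays were quantile-normalised, after which a change in total mRNA cannot be seen. All value columns were used, without 64 control probe sets.

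Values were log2(intensity + 9), where 9 is the rounded 25th percentile of the deposited values. Probe sets at or above the array median on at least 3 of 6 arrays were kept, and the brightest on average stood for its gene. XY was compared with XX in limma 3.58.1 under R 4.3.3 (lmFit and eBayes, two-sided), with Benjamini-Hochberg adjustment over 12442 genes or 22997 probe sets. Every adjusted p in the text comes from this test or an alternative of it. The fit was also run on simulated arrays with the same spread for all probe sets and no difference in array quality. Such a run cannot show how many calls in these data are false. With 3 arrays per group, precision is limited by their number.

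The genes, lists and tests were chosen with earlier results of these data known. Named genes are those past the threshold, the 6 next by p, the 6 smallest changes, those with disagreeing probe sets, the cluster, and the called and next 2 genes of each list. Fbxo32, Fbxl6, Fbxw7, Fbxl5, Fbxo11, Skp1, Cul1, Skp2, Btrc and those joining without XX 1 were named after their values were seen.

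RefSeq promoters (the first listed per gene) were aligned globally, scoring 2 for a match, -1 for a mismatch, -3 to open and -0.5 to extend a gap. Alternatives changed 1 choice each, from the scaling to the arrays used, and XX 1 alone against XY was added after the data were seen.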

Additional observations from a re-analysis of the deposited data

How the results depend on the processing

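No gene or probe set past the threshold with all arrays changed sign in the alternatives run for it, which were 19 for most genes, 18 for Ccnd1 and for each single probe set, and 15 for Nccrp1. Of the 26 F-box genes that the naming rule took and that did not pass, 12 changed sign and 13 passed in at least 1 alternative. Those named after their values were seen are not in these counts.

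The share of all genes called moved with most settings and stands in parentheses. The 3 F-box genes higher in XY (7.86%) became 6 of 49 with the 70th percentile filter (15.1%), 9 with array weights (15.8%), 5 with a pseudocount of 32 (10.4%) or a trended variance (11.5%), 1 of 65 with no filter (3.11%), and 0 with the Actb ratio as a covariate (1.28%) or XX 1 alone against XY (1.16%). The 0 lower (5.34%) became 12 with median scaling (13.0%), 6 with array weights (10.5%) or a trended variance (8.08%), 3 with the 70th percentile filter (10.7%), 2 with the mean of probe sets (6.20%), and 1 with the deposited values (4.25%) or a pseudocount of 32 (7.03%). Without 1 array each, the counts ran from 0 to 8 higher (2.34% to 16.8%) and from 0 to 6 lower (1.58% to 10.6%). Their median change of -0.15 became -0.34 with the deposited values, -0.50 with median scaling, -0.0359 with trimmed mean scaling and -0.0452 with the Actb covariate, where all genes had medians of -0.12, -0.27, 0.18 and 0.04, and ran from -0.16 to -0.10 without 1 array each.

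Probe sets past the threshold, 3 higher and 2 lower, became 6 and 7 of 64 with the 70th percentile filter (11.9% and 12.2% of all probe sets), 10 and 12 with array weights (11.7% and 11.5%), 6 and 10 with a trended variance (8.30% and 8.57%), 5 and 5 with a pseudocount of 32 (7.12% and 7.60%), 5 and 3 after scaling to the trimmed mean (7.51% and 4.03%), 2 and 16 under median scaling (2.78% and 12.4%), and 0 and 0 with no filter (0.719% and 0.651%), the Actb covariate (0.0522% and 0.0217%) or XX 1 alone (0.0575% and 0%). They ran from 0 to 7 and from 0 to 12 without 1 array each.

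For the lists, 13.2% of all genes were called in either direction, and 26.2% with array weights, 25.8% with the 70th percentile filter, 19.6% with a trended variance, 16.9% with median scaling, 13.5% with the mean of probe sets, 11.1% with a pseudocount of 1, 8.05% with the deposited values, 5.02% with no filter, 1.90% with the Actb covariate and 1.40% with XX 1 alone. SCF core genes past the threshold (2) became 5 with array weights, 4 with median scaling or a trended variance, 1 with the deposited values and 0 with no filter, a pseudocount of 1, the Actb covariate or XX 1 alone. F-box proteins with other names (2) became 1 with the 70th percentile filter, the deposited values, the mean of probe sets or no filter, and 0 with the Actb covariate or XX 1 alone. Other cullins (4) became 2 with the Actb covariate or XX 1 alone. Substrates (6) became 11 with array weights or a trended variance, 2 with the deposited values, 3 with no filter, and 0 with the Actb covariate or XX 1 alone. Without 1 array each they ran from 0 to 6, 0 to 3, 1 to 9 and 2 to 12, where 3.92% to 27.4% of all genes were called. The cause of these moves was not tested. A covariate or fewer arrays leave fewer degrees of freedom, yet the highest share, 27.4%, was that without XX 1. As a lone sample, XX 1 is assumed to vary like the XY arrays.

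Deviations of same-numbered arrays from their group mean correlated at -0.10, 0.00 and -0.04, and those of other pairs at -0.06 to 0.10. With 3 arrays per group, these values cannot settle whether the replicate numbers pair the arrays. With the replicate block, 0 F-box genes were higher (3.41% of all genes) and 0 lower (2.05%), 0 probe sets were higher and 1 lower, and the lists had 0 core genes, 0 F-box proteins with other names, 3 other cullins and 3 substrates past the threshold (5.46% of all genes).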
